A study of Mus musculus with 14 samples.

Results

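Type 1 conventional dendritic cells (cDC1) from mouse melanomas were ranked by the XCR1 protein on their surface, and the transcripts of the brightest and the dimmest cells of each tumour were compared. A cell counted as cDC1 when it had an XCR1 staining value and 1 or more unique molecular identifiers (UMIs, counts of single RNA molecules) in at least 4 of the 8 genes Clec9a, Cadm1, Naaa, Tlr3, Irf8, Itgae, Ppt1 and Wdfy4. Of 555 cells, 458 had a staining value and 202 of these met the gene rule. Within each plate with 9 or more such cells the cells were divided by XCR1 staining into 3 parts (tertiles), which gave 61 cells in the high tertile, 73 in the middle and 61 in the low tertile, 195 cells in 11 plates.

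The cells were sorted singly from YUMM1.7 melanomas, a transplantable melanoma line grown under the skin of female mice, and each plate came from 1 tumour of 1 mouse. The split used 4 plates labelled Irf1_FF (59 cells) and 4 labelled Irf1_dXCR1 (84 cells) of experiment M3, and 3 labelled Ikbkb_dXCR1 (52 cells) of experiment M2. The FF mice are the submitters' controls, and Irf1 (an interferon-responsive transcription factor) or Ikbkb (a kinase of the NF-κB pathway) is targeted in dXCR1 mice. What drives the deletion, and whether it alters the Xcr1 gene, is not given in the sources used here. All Irf1 mice and Ikbkb_dXCR1 replicate 3 were 6 weeks old, and Ikbkb_dXCR1 replicates 1 and 2 were 8 weeks old. The Ikbkb_FF plate and Ikbkb_dXCR1 replicate 4 carry no staining values, and Irf1_dXCR1 replicate 2 had 7 rule cells, so these plates were not split. A high or low tertile of a plate held 3 to 10 cells and 527619 to 2018322 UMIs.

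XCR1 is the chemokine receptor that marks cDC1, the dendritic cells that take up dead cells and present their antigens to CD8 T cells. Its ligand XCL1 is made by natural killer and activated CD8 T cells, and the receptor leaves the cell surface once ligand binds, so surface protein and transcript need not run in parallel. Type I interferon, sensed by dendritic cells in tumours, turns on a broad set of antiviral genes through transcription factors that include IRF9 and IRF7.

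The staining that chose the tertiles is given as a description. Staining values are the arcsinh of the recorded fluorescence, a scale close to a natural logarithm at these levels. Plate medians ran from 8.72 to 10.7 (median plate 9.77) in the high tertile, from 7.77 to 9.90 (8.88) in the middle and from 6.85 to 8.49 (7.35) in the low tertile. On the linear scale the median of the high tertile was 3.40 to 32.9 times that of the low tertile, and 7.60 times in the median plate. The lowest XCR1 value of any stained cell was 412 on the linear scale, so the low tertile is dim rather than shown to be negative. The dimmest cell of the high tertile lay 0.031 to 0.532 above the brightest middle cell of its plate, and the brightest cell of the low tertile lay 0.088 to 0.513 below the dimmest middle cell. At the edge of the gene rule, the 36 stained cells with exactly 4 of the 8 genes had a median XCR1 staining of 8.53, and the 28 with exactly 3, which were left out, had 7.47.

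**Figure D1:**
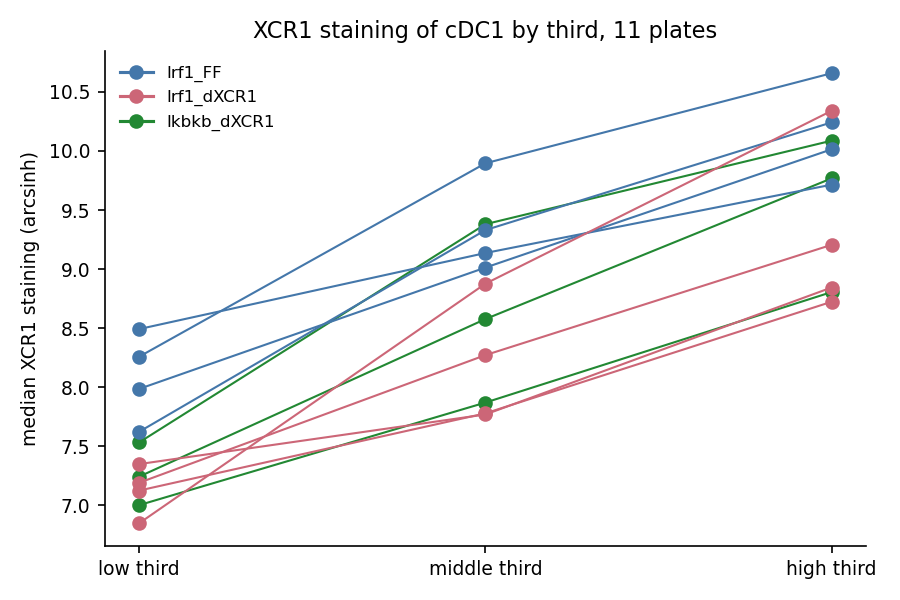
Median XCR1 staining (arcsinh of fluorescence, vertical axis) of the low, middle and high tertile of cDC1 in each of 11 plates; each line is 1 plate, coloured by genotype. The tertiles were chosen on this value, and Irf1_dXCR1 plates lie below Irf1_FF plates in the middle tertile.

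The plates differed in XCR1 level, which the ranking within plates did not use. Median staining of rule cells was 9.33, 9.14, 9.90 and 9.01 in Irf1_FF replicates 1 to 4, and 7.78, 8.88, 7.77 and 8.27 in Irf1_dXCR1 replicates 1, 3, 4 and 5. The genotypes did not overlap, and the mean was lower by 1.17 in Irf1_dXCR1 plates (8.17 ± 0.524 against 9.34 ± 0.391, SD, n = 4 each; exact permutation p = 0.0286, two-sided, the smallest that 4 against 4 plates allow). Over all stained cells, 5 Irf1_dXCR1 and 4 Irf1_FF plates overlapped and the difference was -0.86 (exact permutation p = 0.0794). The Ikbkb_dXCR1 plates stood at 8.58, 9.38 and 7.87. The share of rule cells with an Xcr1 UMI ran from 36.4 to 63.3% in Irf1_dXCR1 plates and from 53.8 to 100.0% in Irf1_FF plates (exact permutation p = 0.0857, n = 4 each). An effect of the targeted gene on staining and an effect of the dXCR1 allele itself cannot be told apart.

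The cells of both tertiles carried the cDC1 genes of the rule, which chose them and are described with no test. Counts per 1000000 UMIs after scaling (CPM) are given as means over 11 plates, high tertile first. Clec9a, the gene of a receptor for dead cells, stood at 206 and 158 CPM and the transcription factor gene Irf8 at 1619 and 1586. Naaa, a lipid-degrading enzyme gene, had 2184 and 2037 CPM, and Wdfy4, needed for cross-presentation, 863 and 771. Itgae, the gene of the integrin CD103, had 505 ± 163 CPM in the high and 230.1 ± 133 in the low tertile (SD, n = 11) and was higher in 10 plates. Of the 195 cells, 8 had mature dendritic cell genes (3 or more of Ccr7, Fscn1, Ccl22, Cacnb3, Socs2 and Nudt17), 2 had macrophage genes and 34 (17.4%) had cycling genes.

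Xcr1 transcript ran in the same direction as the protein. Xcr1 (chromosome 9, 123852315 to 123862029, minus strand, build GRCm38) ranged from 184 to 1257 CPM in the high tertiles, with a median plate of 656, and from 0 to 1047 CPM in the low tertiles, with a median plate of 257. The high tertile was above the low tertile in 10 of 11 plates, although levels of the groups overlapped between plates. Ikbkb_dXCR1 replicate 3 was the exception, at 227 against 257 CPM. Means were 665 ± 382 CPM in the high, 522 in the middle and 334 ± 312 in the low tertile (SD, n = 11). The edgeR quasi-likelihood test, with plate as a block, gave a log2 fold change of 1.49 ± 0.84 (SE) that did not pass (adjusted p = 0.999, unadjusted p = 0.0965). An exact paired permutation test of the plate differences of log2(CPM + 1), added after the values were seen, gave p = 0.00195 over 11 plates. Without Ikbkb_dXCR1 replicate 1 and Irf1_dXCR1 replicate 3, the plates with no Xcr1 UMI in the low tertile, the mean difference was 0.82 ± 0.73 (SD, n = 9; exact permutation p = 0.00781) instead of 2.29.

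An Xcr1 UMI was found in 46 of 61 cells of the high tertile (75.4%), 38 of 73 of the middle (52.1%) and 35 of 61 of the low tertile (57.4%). As plate means the shares were 76.6 ± 18.6% in the high and 52.0 ± 31.0% in the low tertile (SD, n = 11), higher in 6 plates and equal in the other 5. The exact paired permutation test gave p = 0.0312, adjusted over 4 shares to 0.125. With each cell thinned to 20000 UMIs, the shares were 70.4% and 46.6%, higher in 8 plates and lower in 1 (exact permutation adjusted p = 0.0312, n = 11). Among 21 stained cells with macrophage genes and at most 1 rule gene, 0 had an Xcr1 UMI, which allows a share of up to 14.3% and covers counting error only. Their median depth was 112639 UMIs, against 187354 in the high and 171147 in the low tertile. Within plates, the rank correlation over single cells between staining and Xcr1 per UMI was above 0 in 11 of 11 plates, with a median of 0.168 and a range from 0.0393 to 0.832 (195 cells, given as a description).

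Across all genes, none passed the main test. The edgeR test kept 3757 genes and called 0 of them (0.0%), with 64 genes (1.7%) at an unadjusted p under 0.05. DESeq2 called 55 higher and 28 lower (2.21% of the genes tested), and 80 of those 83 had at least 1 plate with no UMI in a tertile. In 6 or more plates of a tertile, 64 of the 83 had no UMI, as did 412 of the 3757 genes kept. The DESeq2 calls with a UMI in every plate of both tertiles were Cd86, Cycs and Cd53, each lower. Without a filter on low counts edgeR called 1 gene higher, Cd81, and 6 lower, Plac8, Ifitm3, Ifitm1, Ms4a4c, Irf7 and Isg20 (0.0459% of 15234 genes). With cells weighted equally, limma called 2 of 3757 genes lower, Ms4a4c and Plac8 (0.0532%).

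Genes of the type I interferon response had lower means in the high tertile. The type I interferon list was chosen when a lower XCR1 staining of interferon-stimulated cells in these data was already known. Its direction is therefore not an independent result. Of 44 genes in the list, 34 were kept, and 33 of these had a fitted log2 fold change below 0, beside 48.9% of all genes kept. The median was -1.32, beside 0.02 over all genes. Taken from the means over plates as log2((high + 1)/(low + 1)), which rests less on plates with no UMI, it was -0.85, beside 0.01 over all genes. By the edgeR test 0 passed, 9 had an unadjusted p under 0.05 with a lower level (0.905% of all genes did), and 12 were lower in 9 or more of 11 plates (2.53% of all genes were). The exception in direction was Ifi27l2a, at 467 ± 293 CPM in the high and 361 ± 297 in the low tertile (SD, n = 11). The summed level of the 44 genes was lower in the high than in the low tertile of 11 of 11 plates. It ran from 3442 to 19871 CPM (median plate 10746) in the high tertiles and from 10258 to 29838 CPM (19836) in the low tertiles. The gap was narrow in Irf1_dXCR1 replicates 1 and 4, where the low tertile had 1.11 and 1.04 times the high tertile's sum, and widest in Irf1_FF replicate 3, at 3.08 times. The middle tertile did not lie between the others in every plate: its mean was 16124 CPM, and in Ikbkb_dXCR1 replicates 1 and 3 and Irf1_dXCR1 replicates 1 and 4 it was above the low tertile.

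**Figure D2:**
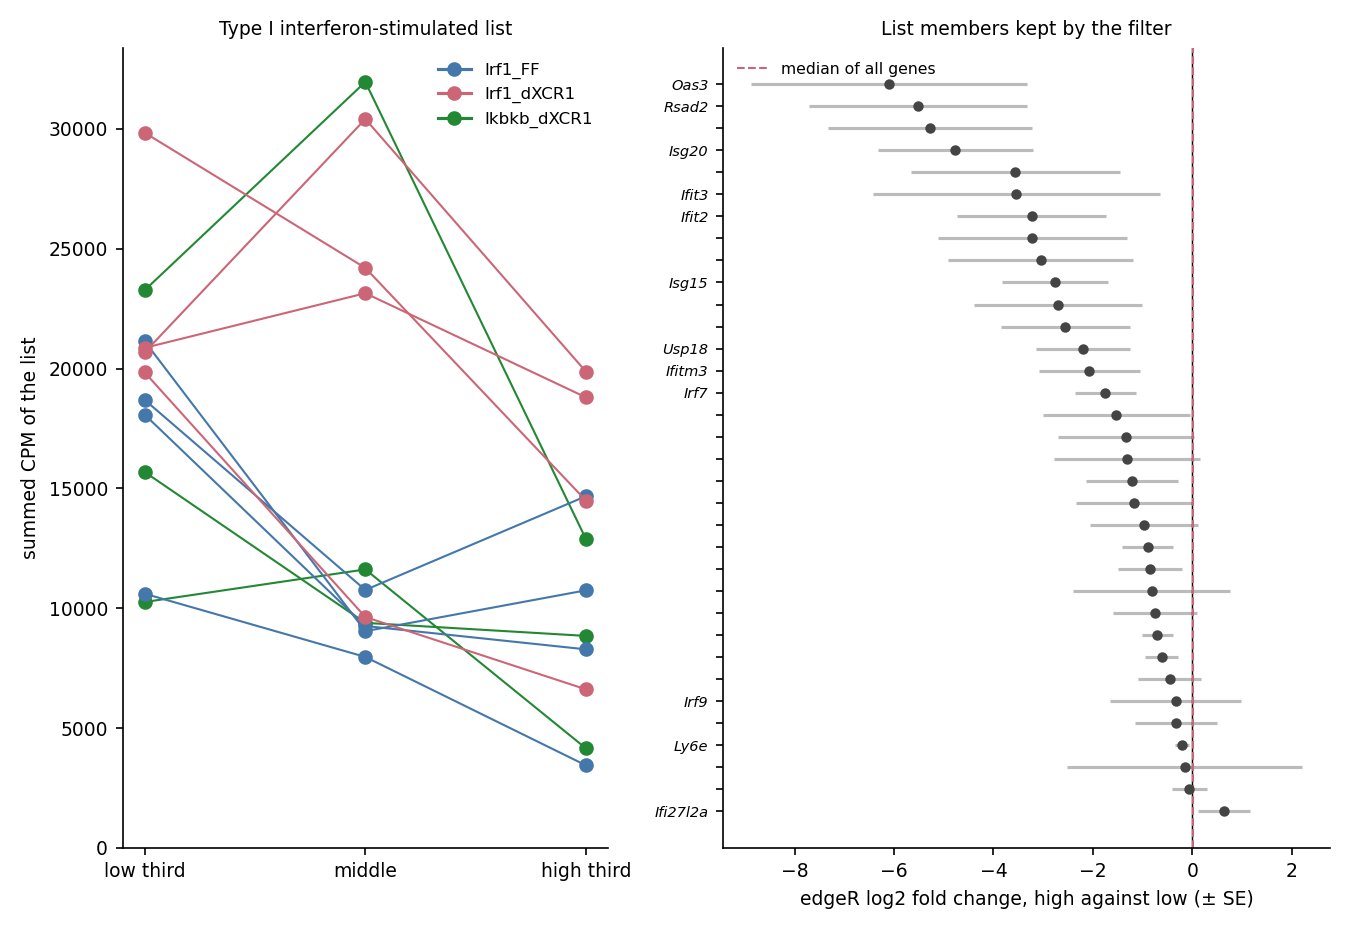
Left, summed CPM of the 44 type I interferon-stimulated genes in the low, middle and high tertile of each plate (lines, coloured by genotype); right, edgeR log2 fold change ± SE of the 34 kept members in order, 12 of them labelled, with the median of all genes dashed. The high tertile lies below the low tertile in 11 of 11 plates, and 33 of 34 members lie below 0.

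Irf7, the transcription factor that amplifies type I interferon, ranged from 0 to 2003 CPM (median plate 459) in the high and from 624 to 2955 CPM (1429) in the low tertiles. It was lower in 10 of 11 plates, with Irf1_dXCR1 replicate 4 nearly level at 2003 against 1995 CPM, and edgeR fitted -1.75 ± 0.61 on the log2 scale (SE; adjusted p = 0.999, unadjusted p = 0.0117). Ifitm3, an interferon-induced membrane protein that blocks virus entry, ranged from 0 to 2629 CPM (983) in the high and from 855 to 3179 CPM (2291) in the low tertiles. It too was lower in 10 plates, and the exception was Irf1_FF replicate 2, at 983 against 855 CPM. Isg15, a ubiquitin-like modifier, ranged from 0 to 883 CPM (151) in the high and from 43.5 to 1368 CPM (457) in the low tertiles and was lower in 9 plates. Usp18, the enzyme that removes Isg15 from proteins, averaged 389 ± 378 and 819 ± 393 CPM, and Ifit2, an RNA-binding antiviral protein gene, 159 ± 174 and 574 ± 399 (SD, n = 11). The early signalling gene Irf9 had nearly equal means, at 247 and 253 CPM. Irf7 and Isg20 are named for their small p and Ifitm3 for its abundance, and the other members were singled out after their values were seen.

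Genes outside the list that were lower in the high tertile included Ms4a4c, Plac8 and Ifitm1. Ms4a4c, a membrane protein gene of the MS4A family, was lower in 11 of 11 plates, ranging from 0 to 451 CPM in the high tertiles, where 6 plates had none, and from 180.4 to 1140 CPM in the low tertiles. Plac8, chosen after its values were seen, was also lower in 11 plates, at 589 ± 603 and 1534 ± 675 CPM (SD, n = 11). Ifitm1 averaged 88.2 ± 216 CPM in the high tertile, with no UMI in 8 plates, and 801 ± 989 in the low tertile, with no UMI in 2. Isg20, an antiviral exonuclease gene, averaged 154 ± 257 and 728 ± 493 CPM. Fitted fold changes of such genes depend on the count added to 0 and are not given.

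**Figure D3:**
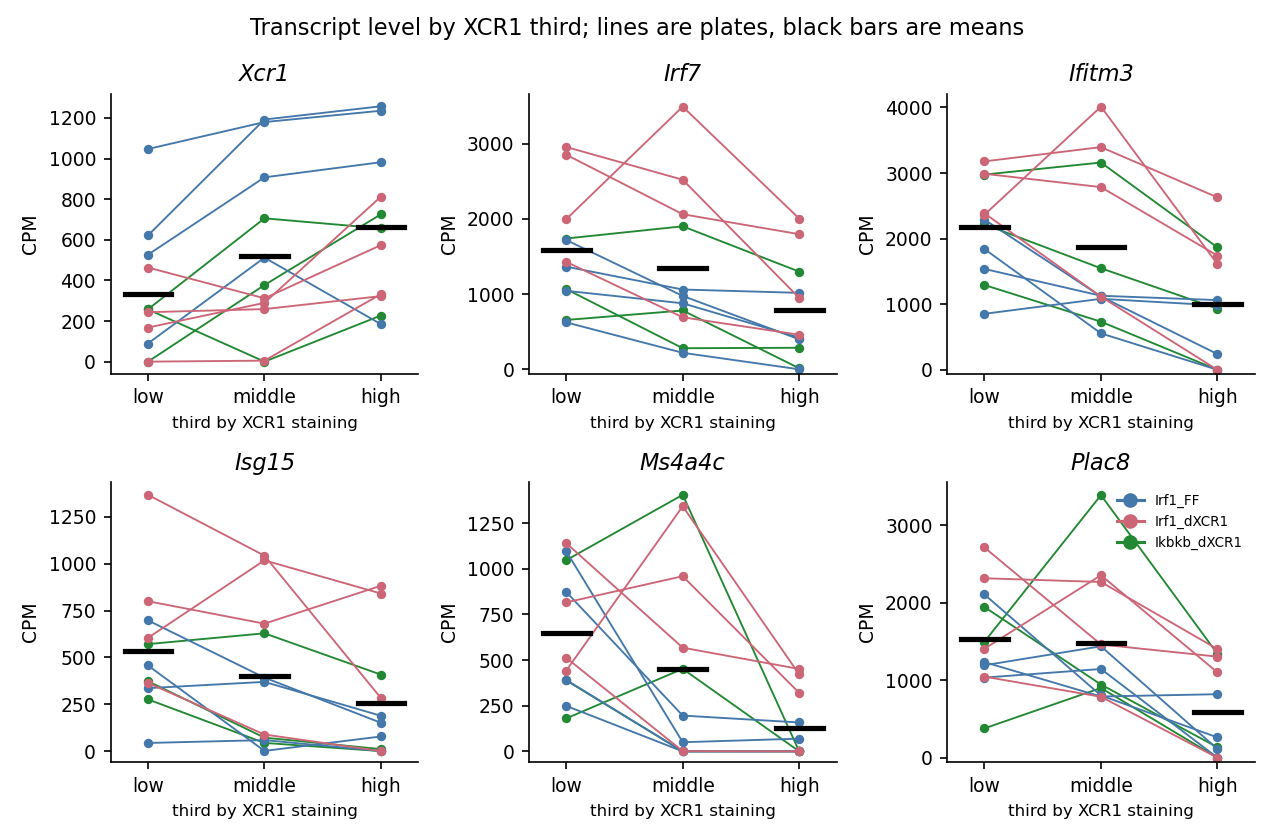
Levels of 6 transcripts (CPM, vertical axes) in the low, middle and high tertile by XCR1 staining; lines are plates coloured by genotype, and black bars are means over 11 plates. Xcr1 averages 334 CPM in the low and 665 in the high tertile, while Irf7, Ifitm3, Isg15, Ms4a4c and Plac8 average less in the high tertile.

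The lower level was also seen per cell. The median cell of the high tertile had 13 of the 44 genes and that of the low tertile 20, and 0.739% and 1.29% of its UMIs in the list. The median cell had the smaller share in the high tertile of 9 of 11 plates. The 5 cells with the most UMIs of the list held 26.1% of its UMIs in the high and 23.5% in the low tertile. With cells thinned to 20000 UMIs, plate medians averaged 11.4 and 15.9 genes of the list, lower in the high tertile of 8 plates and higher in 3. Unthinned, they were lower in 7 and higher in 1. Total depth did not differ by the test: UMIs per cell averaged 195172 ± 85527 and 187647 ± 64742 (SD of plate medians, n = 11; exact permutation p = 0.829). Ikbkb_dXCR1 replicate 1 stood apart, with 50082 UMIs and 519 genes in the median cell of the high tertile against 364809 and 2090 in the low tertile, 16.5% against 2.28% spike-in RNA and 7.05% against 0.788% mitochondrial UMIs. Without that plate the difference in UMIs per cell was 39751 instead of 7526 and that in mitochondrial percent 0.141 instead of 0.698 percentage points. The interferon list median was then -1.23, with 31 of 35 members lower, and the log2 fold change of Xcr1 was 1.16.

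To show where an interferon response motif lies in some of these genes, the 250 bases before the annotated start of Xcr1 and of 4 list members are printed 5′ to 3′ (RefSeq promoters, GRCm38.p6). The windows are chr9:123862030-123862279 for Xcr1 (minus strand), chr4:156200819-156201068 for Isg15 (minus), chr12:26456453-26456702 for Rsad2 (minus), chr19:34583279-34583528 for Ifit3 (plus) and chr5:120777660-120777909 for Oas3 (minus). Capitals mark GAAA, any 2 bases and GAAA again, on either strand, overlapping matches included, the core of the element bound by interferon-activated transcription factors.
Xcr1: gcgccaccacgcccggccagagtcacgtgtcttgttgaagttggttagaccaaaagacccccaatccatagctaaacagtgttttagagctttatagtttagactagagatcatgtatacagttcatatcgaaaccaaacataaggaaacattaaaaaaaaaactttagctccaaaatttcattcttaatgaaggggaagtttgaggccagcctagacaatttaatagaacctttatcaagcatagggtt
Isg15: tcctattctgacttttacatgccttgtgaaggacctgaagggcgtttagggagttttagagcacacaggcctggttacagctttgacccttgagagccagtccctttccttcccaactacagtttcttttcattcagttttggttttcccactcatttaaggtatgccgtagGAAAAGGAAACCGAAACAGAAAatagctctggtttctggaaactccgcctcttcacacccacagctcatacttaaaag
Rsad2: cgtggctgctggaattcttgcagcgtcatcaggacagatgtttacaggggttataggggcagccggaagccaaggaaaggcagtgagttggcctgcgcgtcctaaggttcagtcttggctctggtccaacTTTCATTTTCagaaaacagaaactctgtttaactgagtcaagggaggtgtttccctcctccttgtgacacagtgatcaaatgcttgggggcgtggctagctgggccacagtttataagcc
Ifit3: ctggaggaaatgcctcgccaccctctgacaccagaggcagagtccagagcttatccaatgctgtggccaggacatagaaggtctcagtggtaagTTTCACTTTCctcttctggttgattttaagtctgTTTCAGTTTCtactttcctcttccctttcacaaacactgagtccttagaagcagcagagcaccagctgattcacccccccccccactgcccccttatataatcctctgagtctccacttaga
Oas3: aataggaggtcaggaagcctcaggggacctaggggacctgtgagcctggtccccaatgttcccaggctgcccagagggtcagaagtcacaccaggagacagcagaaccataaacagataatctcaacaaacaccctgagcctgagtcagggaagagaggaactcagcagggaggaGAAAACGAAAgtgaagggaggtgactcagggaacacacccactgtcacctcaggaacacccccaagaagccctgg
Of the 34 kept members 25 had a promoter in the table, and 10 of these 25 held the motif (31.2% of their 32 windows), against 2.98% of 32851 promoters of the same length and 3.87% of 3717 promoters of genes kept in the fit. The Isg15 window holds 3 overlapping matches, and the Xcr1 and Irf7 windows hold 0. Oas3 averaged 51.7 ± 102 and 131 ± 110 CPM, Rsad2, the antiviral enzyme viperin, 52.1 ± 100.3 and 161 ± 141, and Ifit3 48.0 ± 86.8 and 229.8 ± 289 (SD, n = 11, high tertile first).

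In the high against the low tertile, genes of the interferon-γ response were mostly lower within both dXCR1 genotypes. Within Irf1_FF plates they lay near all genes. Of 28 interferon-γ response genes and targets of IRF1, 19 were kept outside the rule, 13 lower (48.9% of all genes were) and 6 higher, with a median of -0.36 and 0 calls by edgeR. In Irf1_FF plates 8 were lower and 11 higher (median 0.11), against 15 and 4 in Irf1_dXCR1 (median -0.59) and 14 and 5 in Ikbkb_dXCR1 plates (median -0.69). Over all genes, 44.9% were lower in Irf1_FF (median 0.14), 47.9% in Irf1_dXCR1 (0.04) and 52.3% in Ikbkb_dXCR1 plates (-0.06). The immunoproteasome subunit gene Psmb8 averaged 1670.4 ± 420.0 and 2164 ± 649.8 CPM, lower in 9 plates, while its partner Psmb9 averaged 1773 ± 390.1 and 1726 ± 514. Irf1 itself averaged 184 and 218 CPM.

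Identity genes of cDC1 had a median above 0 over all plates, but not in Irf1_FF plates. Of 31 genes beside the rule genes, 25 were kept, 17 higher and 8 lower (51.1% of all genes were higher), with a median of 0.40 and 0 calls by edgeR. In Irf1_FF plates 12 were higher and 13 lower (median -0.25), against 19 and 6 in Irf1_dXCR1 (median 0.35) and 16 and 9 in Ikbkb_dXCR1 (median 0.33). Of all genes, 44.9% were lower in Irf1_FF, 47.9% in Irf1_dXCR1 and 52.3% in Ikbkb_dXCR1 plates. The identity list includes Xcr1. Hepacam2 averaged 273 and 65.3 CPM and Ifi205, which belongs to an interferon-inducible family, 2049 ± 740.3 and 2596 ± 780.2 (lower in 9 plates). The transcription factor genes Batf3 and Id2 averaged 559 and 428 CPM and 2477 and 2460.2 CPM. Cd81, a tetraspanin gene named because edgeR called it without the filter, had 1137 CPM in the high and 438 in the low tertile and was higher in 10 of 11 plates.

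Antigen presentation genes had medians near 0 over all plates. Of 22 kept genes of MHC class I presentation 14 were higher and 8 lower (median 0.11), and of 12 of MHC class II 3 were higher and 9 lower (median -0.11). H2-Ab1, a class II chain, averaged 4854 ± 1621 and 5299 ± 1534 CPM, and the class I light chain B2m 3583 ± 1119.6 and 3711 ± 947. Of 13 kept maturation genes 5 were higher and 8 lower by the fit (median -0.14), but 11 were higher and 2 lower by means over plates (median log2 ratio 0.20). The genotypes went opposite ways: 12 of the 13 were higher in Irf1_FF plates (median 1.42), against 4 in Irf1_dXCR1 (median -0.54) and 5 in Ikbkb_dXCR1 plates (median -0.38), with 0 calls by edgeR within any genotype. Of all genes, 44.9%, 47.9% and 52.3% were lower in these genotypes. The summed level of the maturation list was lower in the high tertile of 8 plates and higher in 3. It ran from 958 to 18843 CPM (median plate 3823) in the high and from 2002 to 10599 CPM (4148) in the low tertiles. The part of single plates or cells was not tested. The costimulatory ligand Cd86 averaged 561 ± 354 and 988 ± 435 CPM and was lower in 9 of 11 plates, at a fitted log2 difference of -0.85 ± 0.31 (SE; adjusted p = 0.999 by edgeR, 0.0252 by DESeq2). Genes of receptor internalisation and recycling, 13 higher and 14 lower, had a median of -0.01, and among chemokine and growth factor receptors Ifngr1, a chain of the interferon-γ receptor, averaged 647 ± 328 and 370 ± 235 CPM.

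Of the cell cycle genes, 11 of 16 kept S phase genes (median 0.41) and 7 of 7 G2 and M phase genes (median 0.39) were higher, beside 51.1% of all genes, with 0 calls by edgeR. The direction was not shared by the genotypes: the S phase median was -0.53 in Irf1_FF plates (7 of 16 higher), 0.18 in Irf1_dXCR1 and 2.48 in Ikbkb_dXCR1, and the G2 and M phase median was 2.00 in Irf1_FF, -1.47 in Irf1_dXCR1 (2 of 7 higher) and 0.92 in Ikbkb_dXCR1. The medians over all genes were 0.14 in Irf1_FF, 0.04 in Irf1_dXCR1 and -0.06 in Ikbkb_dXCR1 plates, where 44.9%, 47.9% and 52.3% were lower. Birc5, a mitosis gene, averaged 324 ± 366 and 184 ± 193 CPM and Pcna, the replication clamp, 313 ± 243 and 304 ± 227. Cells with cycling genes made up 22.8 ± 21.5% of the high and 18.8 ± 19.4% of the low tertile (SD, n = 11; exact permutation p = 0.594). Of NF-κB targets and subunits 6 were higher and 10 lower by the fit (median -0.28), but 8 and 8 by means (median log2 ratio 0.05). Within Irf1_FF plates 12 were higher and 4 lower (median 0.79). The counts were 8 and 8 in Irf1_dXCR1 (median -0.05) and 6 and 10 in Ikbkb_dXCR1 plates (median -0.56). The inhibitor gene Nfkbia averaged 880.4 ± 405 and 637 ± 306 CPM.

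**Figure D4:**
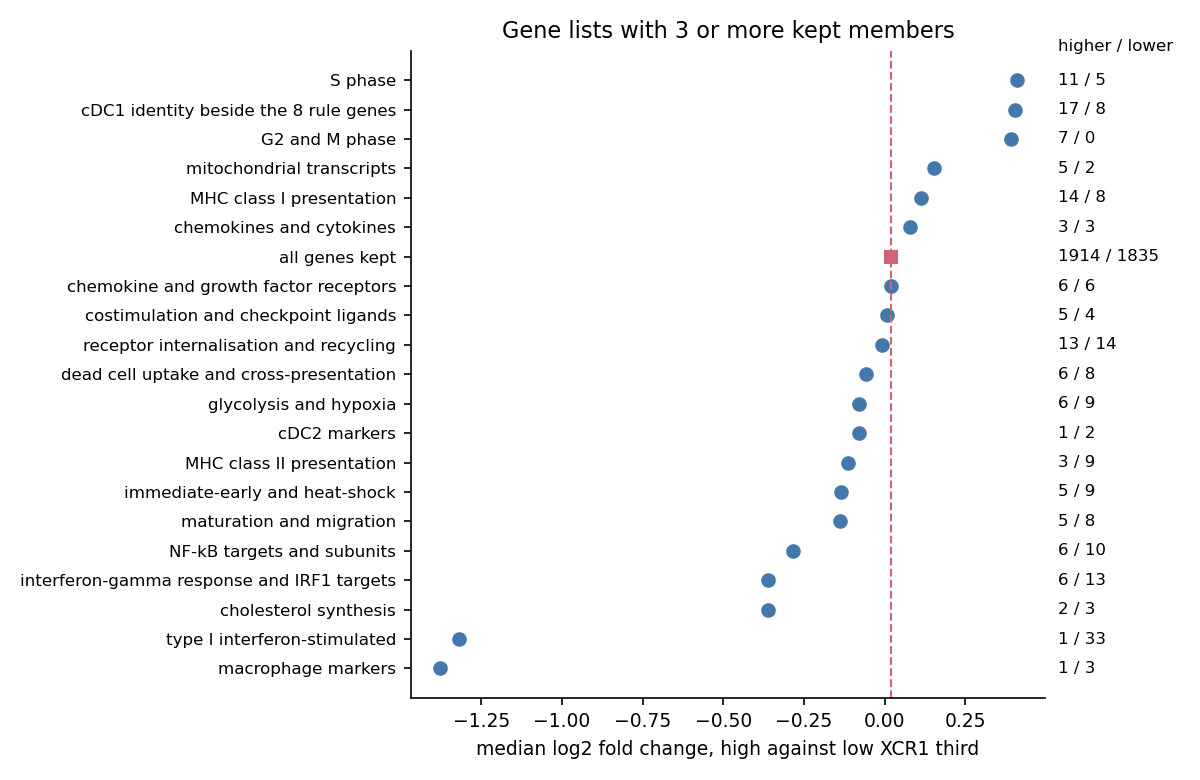
Median edgeR log2 fold change (high against low XCR1 tertile, horizontal axis) of each gene list with 3 or more kept members, with the numbers of members higher and lower at the right and all genes kept as the square and dashed line. The type I interferon list stands at -1.32 with 33 of 34 members lower; the macrophage list has 4 members.

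Some markers of other cell types were present in both tertiles. Of 15 macrophage markers 4 were kept, 1 higher and 3 lower by the fit, with a median of -1.38, beside 0.02 over all genes. The median log2 ratio of means was -0.61. By genotype the fitted median was -2.11 in Irf1_FF, -2.20 in Irf1_dXCR1 and 0.70 in Ikbkb_dXCR1 plates. Fcgr1, the gene of CD64, averaged 55.6 and 179 CPM, lower in 6 plates and higher in 2. The summed level of the markers was 641 to 4569 CPM in the high and 897 to 4022 CPM in the low tertiles (means 2073 and 2063). Lyz2, a lysozyme gene of myeloid cells, with 921 and 778 CPM, and Cd68, a lysosomal membrane protein gene, with 633 and 763, made up most of it. Csf1r and C1qa had a median plate of 0 CPM in both tertiles. Of the 11 cDC2 markers, which include Ms4a4c, 3 were kept, and their sum was 8.23 to 1435 CPM in the high and 180.4 to 2332 in the low tertiles (means 602 and 1143), lower in the high tertile of 7 plates. Ms4a4c alone, at 129 and 648 CPM, made up most of that difference in means. Of 8 NK cell markers only Klrk1 was kept, at 815 and 943 CPM, and of 7 B cell markers only Ighm, at 362 and 259. No member of the plasmacytoid, fibroblast, T cell, neutrophil or melanoma lists was kept. The part of other cells in the interferon difference was not tested.

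Genes with the smallest p that were higher in the high tertile were Clip1, Kdm2b, Cbl, Dpep2, Nckipsd, Pik3c3 and Pias1, none of which passed (edgeR adjusted p = 0.999). They were absent from 6 to 8 of 11 low tertiles: Cbl, a ubiquitin ligase that sends receptors to degradation, averaged 151 ± 174 and 12.6 ± 28.5 CPM, and Pias1, a SUMO ligase, 258 ± 232 and 52.5 ± 95.7. Beside the interferon genes, the lower group held Cd53, a leukocyte tetraspanin gene, at 1006 ± 427 and 1402 ± 337 CPM, Cycs, encoding cytochrome c, at 926 ± 259 and 1313 ± 328, and Wfdc17 at 181 ± 181 and 497 ± 336, each lower in 10 plates.

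XCR1-bright cells were also brighter for CD45. CD45 staining, as the mean of plate medians, was 10.6 ± 0.255 in the high and 10.1 ± 0.246 in the low tertile, a difference of 0.588 ± 0.330 (SD, n = 11) that was above 0 in 11 of 11 plates (exact paired permutation p = 9.77e-04, the smallest that 11 plates allow; adjusted p = 0.0137 over 14 measures). Its transcript Ptprc averaged 715 and 751 CPM. Higher means that did not pass were those of MHCII (difference 0.431 ± 0.538, 8 of 11 plates), LIVE (0.424 ± 0.554, 9 plates), B-TIL (0.476 ± 0.625, 9 plates) and forward scatter, a measure of cell size (0.151 ± 0.197, 9 plates), each at an adjusted exact permutation p of 0.105 (n = 11). The mitochondrial percent of UMIs, at the same adjusted p, averaged 1.72 in the high tertile, a difference of 0.698 ± 1.86 percentage points (SD, n = 11), and was higher in 7 plates. The summed mitochondrial transcripts averaged 9501 and 8374 CPM and were higher in 8 plates. CD11c (0.172 ± 0.655), side scatter (0.260 ± 0.529), CD64, CD11b and LIN did not pass. Several channels were thus higher together. Ranked by XCR1 less a linear fit on forward scatter within each plate, 32 of 34 interferon list members were lower, with a median of -1.59. That ranking made no adjustment for CD45, MHCII, LIVE or B-TIL. The part of overall brightness or size in the XCR1 ranking was not tested.

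**Figure D5:**
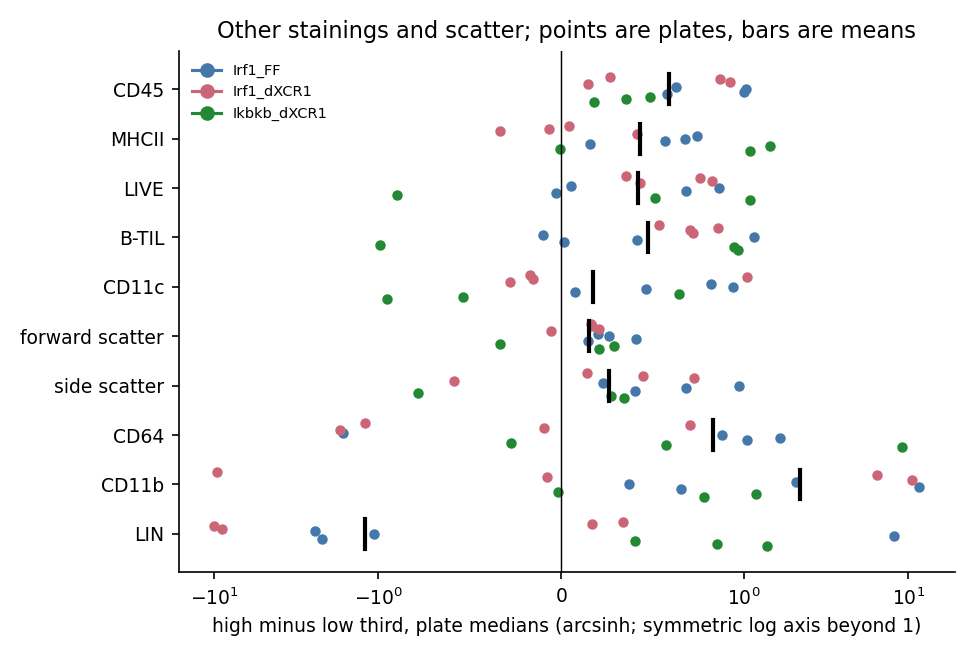
Difference of plate medians, high minus low tertile, for 10 stainings and scatter measures (arcsinh scale; the horizontal axis is logarithmic beyond 1 on either side); points are 11 plates coloured by genotype and bars are means. CD45 lies above 0 in 11 of 11 plates, while the other measures shown have plates on both sides.

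The direction held in the fit of each genotype, with no test of a list, but not in each plate. The interferon list had a median of -1.995 in Irf1_FF plates (28 of 34 lower, beside 44.9% of all genes), -1.05 in Irf1_dXCR1 (29 of 34, 47.9%) and -2.17 in Ikbkb_dXCR1 plates (30 of 34, 52.3%). By CPM, members divided about evenly in Irf1_dXCR1 replicates 1 (18 lower, 16 higher) and 4 (16 lower, 18 higher). Replicates 3 and 5 of that genotype had 29 and 31 lower and 3 higher each. In every other plate more members were lower than higher. Tests of the difference between Irf1 genotypes and between experiments each called 0 of 3757 genes (0.0%) by edgeR, with 40 and 122 at an unadjusted p under 0.05, and 39 and 264 by DESeq2. Experiment and targeted line cannot be told apart. The mean log2 ratio of the list's sum was -1.02 in Irf1_FF and -0.71 in Irf1_dXCR1 plates (exact permutation p = 0.486, n = 4 each).

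Stained cells that missed the gene rule were split the same way, 81 cells in each outer tertile of 10 plates, in a comparison added after the data were seen. There 33 of 39 kept interferon list members were lower, with a median of -0.80, beside 59.1% of all genes and a median of -0.27. In the same fit, 38 of 39 members were lower in rule cells, with a median of -1.48 (47.0% of all genes). Xcr1 had a log2 fold change of -1.14 outside the rule, and the difference between both sets of cells, 2.66 ± 3.54, did not pass (edgeR adjusted p = 0.999). The test of that difference called 0 of 4032 genes, with 173 at an unadjusted p under 0.05.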

How the data were processed

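The deposited table holds UMI counts of 21205 genes in 555 cells, as whole numbers; per the labels' protocols, cells were sorted into plates with spike-in RNA and tagged with UMIs at the 5′ end of transcripts. Per the submitters' processing notes, STAR 2.5.3a, HTSeq 0.9.1, bcl2fastq and build GRCm38 were used. A second deposited file gives plate, genotype and stainings, with arcsinh values (a natural log scale at high values, and the unit called score here) as the authors computed them, and spike-in and mitochondrial fractions as deposited. Of other filters the sources used here say nothing. UMIs have 5 bases, so a count ends at 1024 per gene and cell and high levels are understated. No doublet caller was run, since wells were sorted singly.

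Counts were summed per plate and tertile and tested with edgeR 4.0.16 (filterByExpr, TMM, quasi-likelihood, plate as a block since both tertiles share a tumour) in R 4.3.3, with Benjamini-Hochberg adjustment and a threshold of 0.05. Plates held 2810321 to 10120557 UMIs. Stainings and shares were compared by exact two-sided paired permutation with scipy 1.17.1. Alternatives used DESeq2 1.42.0 and limma 3.58.1, among others. The fits were tested on simulated data. Named genes were Xcr1, the 8 genes with the smallest p in each direction with 10 CPM or more, and the 2 most abundant of each list. Some genes that this rule names are not reported here. The members, lists and rules were chosen with earlier results of these data known, among them a lower XCR1 staining of interferon-stimulated cells. Replicate numbers follow accession order and pair nothing.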

Additional observations from a re-analysis of the deposited data

Results flagged for a closer look

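In groups of 4 plates, 36 sets of values were looked at for a plate far from the rest, where chance alone flags about 1 in 20, and 5 held one. Among Irf1_FF plates, 1 plate stood far above the others in the difference of LIN staining, high minus low XCR1 tertile (8.21 on the arcsinh scale), 1 in that of CD11b staining (11.7) and 1 in that of the mitochondrial percent (0.800 percentage points). Among Irf1_dXCR1 plates, 1 plate stood far below the others in forward scatter (-0.057) and 1 far above in CD11c staining (1.05). None of these measures passed its test between the tertiles.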

How the results depend on the processing

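Against 0 calls in the main test, DESeq2 called 55 genes higher and 28 lower, edgeR without a filter 1 and 6, and limma with equal cell weights 0 and 2. The other alternatives called 0, with no replicate block 0 in either direction. For the difference by Irf1 genotype DESeq2 called 39 genes and the unfiltered fit 1, and for that by experiment 264 and 2, against 0. The cause was not tested. The log2 fold change of Xcr1 stayed above 0 in every alternative (1.16 to 1.69 with a plate left out, 0.99 with no replicate block, 0.77 in plates with 15 or more rule cells) and passed by exact permutation at 2.29 and, over 9 plates, 0.82. The interferon list median was -1.64 to -1.06 with a plate left out, with 31 to 33 members lower, and -0.86 with no replicate block.

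CD45 staining passed with each plate left out (0.544 to 0.632) and not with 5 of the rule genes (0.547, adjusted exact permutation p = 0.0820). B-TIL staining passed with plates split at the median (0.474). Without Ikbkb_dXCR1 replicate 3, forward scatter, LIVE and B-TIL also passed; their ranges with a plate left out were 0.126 to 0.200, 0.357 to 0.556 and 0.408 to 0.623. The share with an Xcr1 UMI passed without cells with mature genes (difference 29.8 percentage points). XCR1 staining by Irf1 genotype was -0.861 over all stained cells and -1.40 to -0.986 with a plate left out, where 4 against 3 plates cannot give an exact p under 0.0571. Of 55 named genes, 31 changed sign in 1 or more of 29 alternatives, none of them among the 16 named for the smallest p. Those 16 were chosen for their p in the same data, so their stable sign is no independent support. Tertiles of 3 to 10 cells limit every gene's precision.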
